A study of Zea mays with 4 samples.

Results

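NKD2 bound the maize genome mostly at sites that stood alone, but at 197 places 3 or more NKD2 summits followed each other with no more than 1000 bp between successive summits. These chains held 609 of the 56855 NKD2 peaks, or 1.07% (95% Wilson interval 0.990 to 1.16%). That interval treats peaks as independent, although each chain brings in 3 or more at once. The 197 chains had an exact Poisson interval of 170 to 227. Their members were found by sorting all NKD2 summits by chromosome and position, linking successive summits at most 1000 bp apart and keeping the chains of 3 or more. A further 6476 peaks formed 3238 pairs under the same limit, and 49770 peaks were isolated. The chains were chosen by the positions of the NKD2 summits, so their number, length and gaps are given as a description.

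NKD2 and NKD1 (NAKED ENDOSPERM2 and NAKED ENDOSPERM1) are zinc finger transcription factors of the INDETERMINATE DOMAIN family, encoded by duplicate maize genes that act in the endosperm, the nutritive tissue of the seed. They are known for their part in the fate of the aleurone, its outer cell layer, and in the storage of starch and protein. Several sites for one factor within a short stretch of DNA are a common feature of regulatory regions and also of repeated DNA, and a factor can occupy such sites independently or together.

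Binding was measured by DNA affinity purification sequencing (DAP-seq), in which a protein made in vitro with a HALO tag captures fragments of naked genomic DNA. The samples used were 1 NKD2 library and 1 NKD1 library, both with DNA of 14-day-old seedlings of the inbred line B73, sheared to about 200 bp and read as pairs of 150 bp. For 1 count, lists of 1 HB115 and 1 NACTF49 library were added, 2 other maize factors assayed in the same way with single reads of 75 bp. The DNA carried no chromatin, and the seedlings served as the source of DNA only. With 1 library per factor there was no replicate error and no test across samples, so intervals cover counting error only and no p-value is given. Intervals of shares of peaks treat each peak as independent, although the members of a chain enter together. They can therefore be too narrow for chain members. The lists held no read totals, and the depth behind each peak is unknown.

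Of the 197 chains, 181 had exactly 3 summits, 14 had 4 and 2 had 5. If the summits of each 5 Mb window had been placed uniformly within it, 45.7 chains of 3 or more would have been expected by calculation, with 139 peaks in them. The observed number was 4.31 times the calculated number of chains and 4.39 times that of peaks. The ratio was 4.08 for chains of 3 and 10.7 for chains of 4, where 1.31 were calculated. For pairs it was 2.12, with 1529 calculated. Longer chains were thus further above the calculation than shorter ones, although chains of 4 and 5 were few. The counts carry exact Poisson intervals of 156 to 209 for chains of 3 and 7.65 to 23.5 for chains of 4. By the same rule, NKD1 formed 0 chains and 20 pairs among 1951 peaks, HB115 0 chains among 936 peaks and NACTF49 4 chains among 7388 peaks, where 0.00243, 0.000471 and 0.159 chains were calculated.

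The chains were about 1 kb long, measured from first to last summit. The median was 1008 bp (95% interval from order statistics 929 to 1058 bp), the middle 50% lay between 678 and 1274 bp, and the range was 86 to 2042 bp. Chains of 3 had a median of 970 bp and chains of 4 of 1421 bp. All 4 length classes of chains of 3 lay above the calculation by a similar factor. There were 27 chains of up to 500 bp, 4.71 times the calculated 5.74. The classes up to 1000, 1500 and 2000 bp held 68, 65 and 21 chains, or 4.01, 3.88 and 3.81 times the calculated number. Within the shortest class the chains were not evenly spread, as 20 of the 27 were between 86 and 265 bp long.

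**Figure D1:**
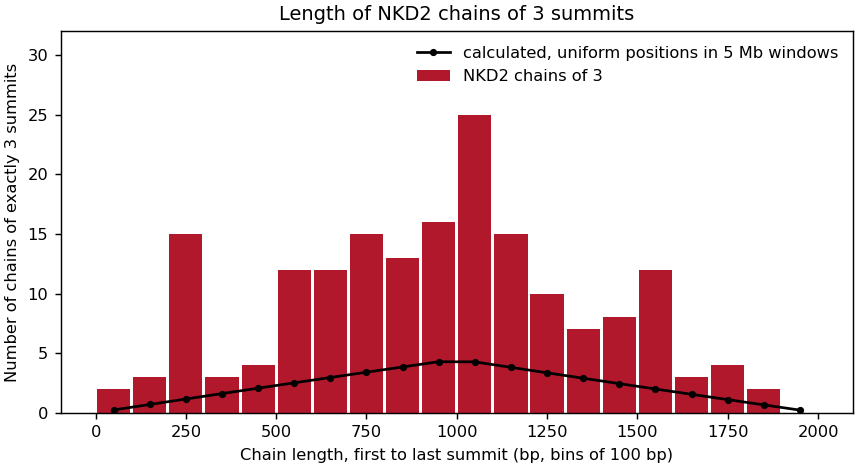
Number of NKD2 chains of exactly 3 summits (bars, vertical axis) by chain length in bins of 100 bp (horizontal axis), with the number calculated from uniform positions in 5 Mb windows (black line). Bars stand above the line over nearly the whole range, and a separate group of 15 chains is seen between 200 and 300 bp.

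The 412 gaps between successive summits in chains ranged from 4 to 998 bp, with a median of 467 bp (404 to 531 bp). Gaps in pairs were shorter, with a median of 334 bp (316 to 356 bp). A gap shorter than the width of 1 deposited peak (200 bp or less) was found for 120 gaps in chains (29.1%, 24.9 to 33.7%) and 1146 gaps in pairs (35.4%, 33.8 to 37.1%). At such distances fragments can cover both summits, and GEM, the peak caller, divides reads between neighboring events. Signals that are not whole numbers made up 86.6% of chain members with a neighbor within 500 bp and 19.9% of the other chain members, against 21.8% of isolated peaks and beside 26.7% of all NKD2 peaks. Whether divided reads gave them was not tested. In chains of 3 the shorter gap had a median of 218 bp and the longer gap of 697 bp. At the limit itself, the longest gaps inside chains were 998 bp in a chain on chromosome 6 with signals up to 46.3 and a chain on chromosome 9 with signals up to 42.0. The nearest groups left out had gaps of 1006 bp and highest signals of 29.0 on chromosome 7, 101.7 on chromosome 3 and 51.0 on chromosome 2.

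The most frequent gaps in chains were 78 bp with 10 cases, 75 and 128 bp with 8 cases each, 156 bp with 6 and 152 bp with 4. In pairs the order differed, as 152 bp was the most frequent with 76 cases, while 78 bp had 23, 75 bp 15 and 128 bp 3. The gap of 156 bp, which is 2 times 78, had 26 cases in pairs. Among the 181 chains of 3, there were 11 whose gaps both matched those of another chain within 2 bp, read in either direction. They made 3 sets, with gaps of 75 and 128 bp in 5 chains, 78 and 156 bp in 4 chains, and 78 and 78 bp in 2 chains. Such exact recurrence occurred on chromosomes 1, 2, 3, 4, 6 and 8.

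The set with gaps of 75 and 128 bp (127 bp in 1 chain) lay on 4 chromosomes, in build v4 of the B73 genome. Read from the outer summit of the shorter gap, the signals were 45.0, 23.7 and 15.3 in the chain from 128518934 to 128519137 on chromosome 1, and 42.6, 26.4 and 17.0 in the chain from 82079559 to 82079762 on chromosome 6. On chromosome 4 they were 39.1, 47.9 and 17.0 from 71246629 to 71246832, and 18.1, 45.0 and 15.9 from 93770701 to 93770903. On chromosome 8, from 74217796 to 74217999, they were 13.8, 47.9 and 16.9. The summit beyond the longer gap was the weakest in 4 of the 5 chains, and its signal stayed between 15.3 and 17.0 in all 5. The strongest summit had a signal of 42.6 to 47.9 in each, at the outer summit of the shorter gap in 2 chains and in the middle in 3.

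The sets based on 78 bp were stronger. The chains with gaps of 78 and 78 bp had signals of 102.7, 150.3 and 69.0 on chromosome 2 from 193567911 to 193568067, and of 49.9, 125.7 and 156.4 on chromosome 6 from 143645863 to 143646019. Those with gaps of 78 and 156 bp, again read from the shorter gap, had signals of 60.8, 129.2 and 90 on chromosome 4 from 121807720 to 121807954 and of 76.4, 75.6 and 71.1 on chromosome 8 from 99752301 to 99752535. On chromosome 3 they were 46.9, 98.3 and 39.6 from 92595449 to 92595683, and 67.4, 89.7 and 54.9 from 130559532 to 130559766. Of the 18 members of these 6 chains, 17 were among the strongest 10% of all NKD2 peaks, which begins at a signal of 43.8. The middle summit was the strongest in 3 of the 4 chains with gaps of 78 and 156 bp. A related chain of 4 summits on chromosome 4, from 140237782 to 140238018, had gaps of 79, 79 and 78 bp and signals of 48.1, 82.7, 99.9 and 73.3, so all 4 of its members were in the strongest 10%.

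Together with these, 21 chains were at most 300 bp long, and the next longest chain measured 335 bp. This limit was set after the lengths were seen. The 11 chains of the 3 sets with recurring gaps were all among these 21 chains, which may therefore not be independent of each other. Intervals given for the short chains treat each peak or chain as independent. The 21 short chains held 64 peaks, with a median signal of 43.3 (31.1 to 49.9), against 21.4 (20.1 to 23.0) for the 545 peaks of the 176 longer chains. Of the 64 peaks, 32 were in the strongest 10% of the NKD2 list (50%, 38.1 to 61.9%). Each of their gaps was 156 bp or less, below the fragment length of about 200 bp, and the part of shared reads in these signals was not tested.

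**Figure D2:**
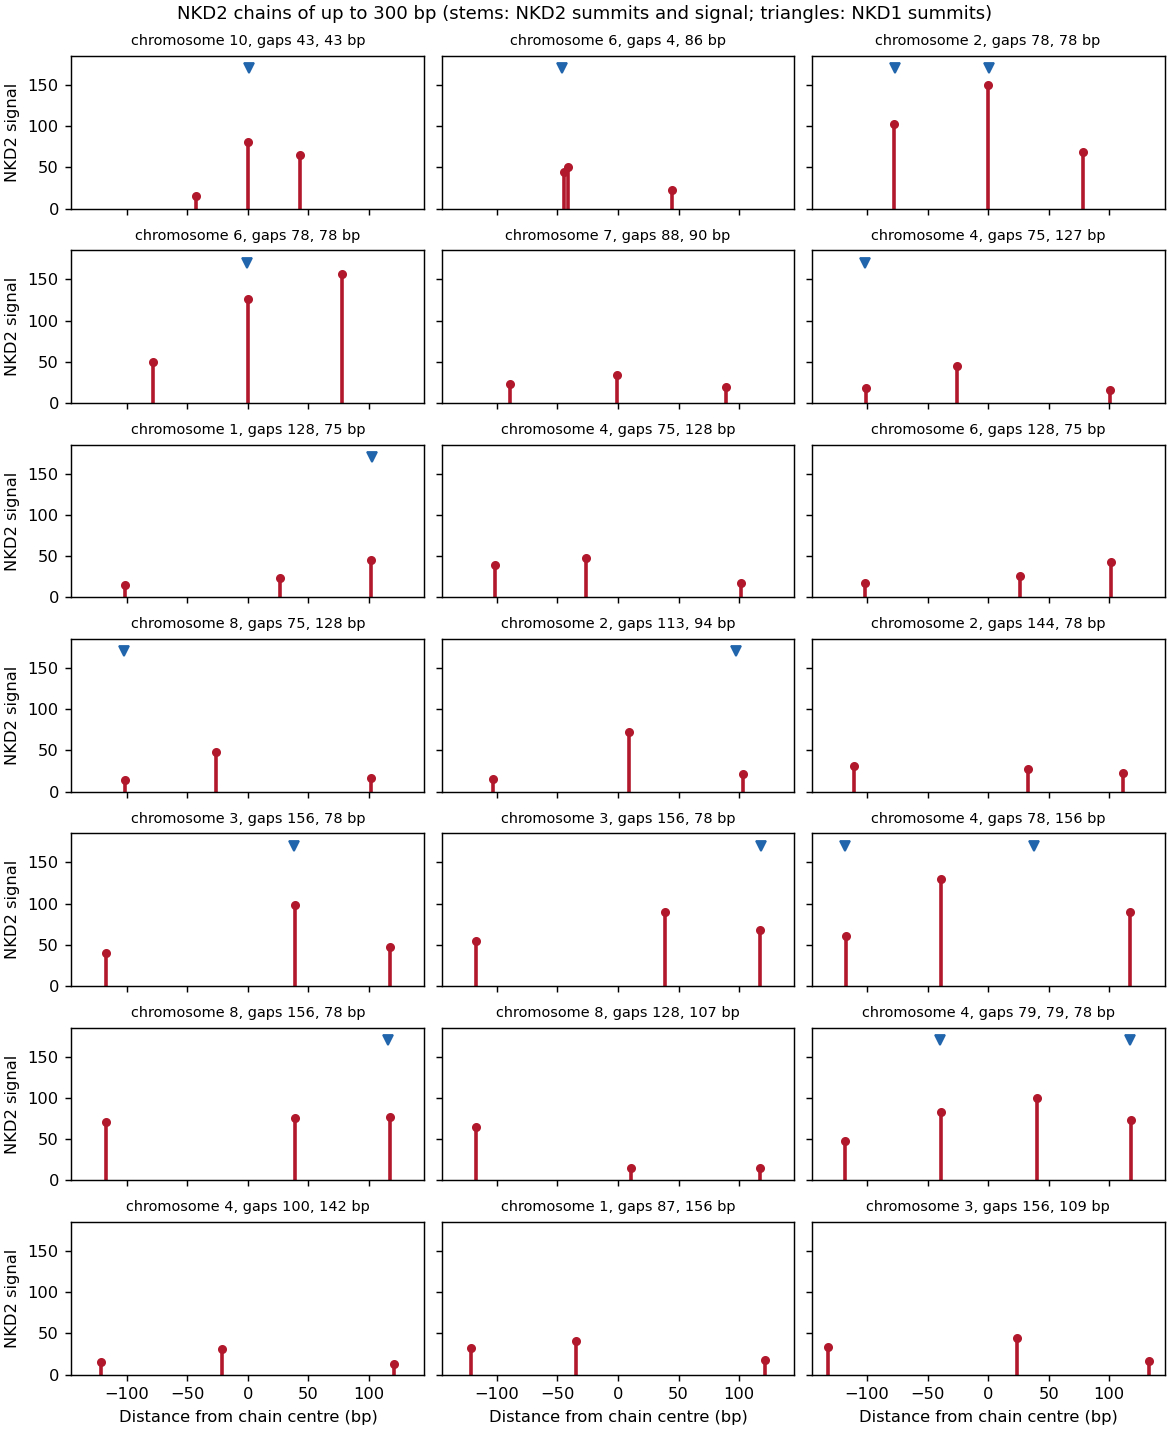
The 21 NKD2 chains of up to 300 bp, each in 1 panel, with distance from the chain centre in bp (horizontal axis), NKD2 signal (red stems, vertical axis) and the places of NKD1 summits (blue triangles, drawn at a fixed height). The equal steps of 43, 78 and 79 bp and the repeated pattern of 75 and 128 bp are visible, and 13 of the 21 chains carry an NKD1 summit.

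The 2 shortest chains of all had other gaps. On chromosome 10, from 72132133 to 72132219, summits with signals of 15.2, 80.7 and 65.1 stood 43 and 43 bp apart. On chromosome 6, from 165299111 to 165299201, summits with signals of 44.8, 50.1 and 23.1 stood 4 and 86 bp apart. Both chains had 1 NKD1 summit. The gap of 4 bp on chromosome 6 was the smallest in any chain.

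Across all chains, the signal of members differed little from that of other NKD2 peaks. The median percentile by signal within the NKD2 list, from weak to strong, was 55.9 for chain members (49.9 to 60.2), 51.7 for pair members (49.9 to 52.2) and 49.9 for isolated peaks. In signal units the medians were 22.3, 21.1 and 21.0. The upper end differed more. The strongest 10% of the list took in 93 chain members (15.3%, 12.6 to 18.3%), 845 pair members (13.0%, 12.2 to 13.9%) and 4748 isolated peaks (9.54%, 9.28 to 9.80%), beside 10.0% of all NKD2 peaks. Chain members had a q-value of at most 0.0001 in 283 cases (46.5%, 42.5 to 50.4%), pair members in 2690 (41.5%, 40.3 to 42.7%) and isolated peaks in 17853 (35.9%, 35.5 to 36.3%), beside 36.6% of the list. Without the 21 short chains, 11.2% of chain members were in the strongest 10% (8.81 to 14.1%), an interval that included the share of isolated peaks. The weakest 10% held 63 chain members (10.3%, 8.17 to 13.0%), 703 pair members (10.9%, 10.1 to 11.6%) and 4664 isolated peaks (9.37%, 9.12 to 9.63%). It held 9.55% of all NKD2 peaks, so chains did not differ from the list there within counting error.

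**Figure D3:**
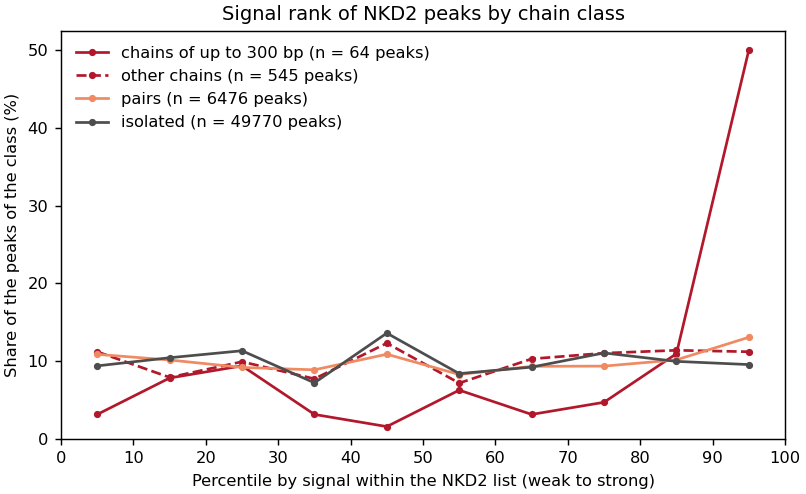
Share of the peaks of each class (vertical axis, %) in each step of 10% of the NKD2 list by signal (horizontal axis, percentile from weak to strong), for chains of up to 300 bp, other chains, pairs and isolated peaks. Ties in signal make the steps unequal in size; the short chains stand apart with 50% of their peaks in the strongest 10%.

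Within a chain, strong and weak summits were mixed. The highest signal of a chain ranged from 13.1 to 190 with a median of 33.7, and the lowest from 9.30 to 71.1 with a median of 16.0. In chains of 3 the highest signal was 2.06 times the lowest in the median (1.87 to 2.20). Sets of 3 successive isolated peaks along the chromosomes, which stand far apart, gave a median of 1.95 (1.94 to 1.98). Over all chains of 3 the spread was therefore close to that among unlinked peaks. The same held for those longer than 300 bp (2.01, 1.83 to 2.15), whereas the short chains of 3 had a higher median of 2.49 (2.17 to 2.94). At least 1 member in the strongest 10% was found in 65 of the 197 chains (33.0%, 26.8 to 39.8%), and 6 chains had all their members there. These 6 were the chain of 4 with steps of 78 and 79 bp and 5 of the 6 chains of 3 with gaps of 78 and 78 or 78 and 156 bp. In 19 chains (9.64%, 6.26 to 14.6%) every member was below the median of the list. Among chains of 3, 14 had 2 members in the strongest 10% (7.73%, 4.66 to 12.6%) and 5 had 3 (2.76%, 1.19 to 6.30%). Of the 16586 sets of 3 isolated peaks, 2.71% had 2 and 0.121% had 3.

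The strongest summit took no preferred place in the chains as a whole. It was the first summit in 59 chains of 3, the middle in 57 and the last in 64, with 1 tie left out, so the middle had 31.7% (25.3 to 38.8%). In the short chains the middle summit was the strongest in 14 of 20 (70.0%, 48.1 to 85.5%), against 43 of 160 in the longer chains (26.9%, 20.6 to 34.2%). The short chains included the 11 with recurring gaps, which the interval treats as independent. The middle summit of a short chain had close neighbors on both sides, and the part of read division by the caller was not tested.

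The strongest chain of each chromosome shows this range. The highest signal in any chain was on chromosome 1 from 305019561 to 305020948, close to the chromosome end, with signals of 190, 71.0 and 43.0 and gaps of 524 and 863 bp. On chromosome 3 the chain from 46290744 to 46291655 had signals of 125.6, 43.4 and 16.2, the first 2 summits only 92 bp apart. The strongest chain of chromosome 7, from 105374508 to 105375452, had 1 strong summit with a signal of 95.3 between 2 weak ones with 17.0 and 20.7. That of chromosome 9, from 105955516 to 105955851, had signals of 14.2, 24.8 and 103, and that of chromosome 5, from 169173165 to 169174169, of 31.0, 65.6 and 16.4. On chromosome 10 a chain of 4, from 67865442 to 67867055, had signals of 88.0, 11.4, 21.7 and 40. The strongest chains of chromosomes 2, 4, 6 and 8 were those with steps of 78 bp given above. In the chains of chromosomes 3, 5, 7, 9 and 10 only 1 summit was in the strongest 10%. On chromosome 3 the summit with 43.4 was just below its limit of 43.8. In the chains of chromosomes 2, 4, 6 and 8 all members were in the strongest 10%.

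The chains with most summits were not the strongest. The 2 chains of 5 summits ran from 62411045 to 62413087 on chromosome 1, with signals of 11, 13.8, 31.6, 19.3 and 30.0, and from 66524400 to 66525980 on chromosome 4, with signals of 29.8, 15.6, 21.2, 21.2 and 14.0. Neither had a member in the strongest 10%. Another chain of 4, on chromosome 3 from 207219406 to 207221254, had signals of 17.0, 107, 34.1 and 59.9. The longest chains of 3 differed in strength. They measured 1861 bp on chromosome 9 from 77375208 to 77377069 with signals of 23.2, 33.0 and 26.0, 1827 bp on chromosome 1 from 207632772 to 207634599 with signals of 25.1, 15.0 and 23.0, and 1786 bp on chromosome 2 from 35520655 to 35522441 with signals of 28.0, 81.0 and 59.0, the last 2 of them in the strongest 10%.

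NKD1 peaks, which the choice of chains did not use, were found in 39 of the 197 chains (19.8%, 14.8 to 25.9%) and in 276 of the 3238 pairs (8.52%, 7.61 to 9.54%). A chain has more summits than a pair, and among chains of 3 the share was 19.3% (14.2 to 25.7%), against 9.09% (8.66 to 9.54%) of the 16586 sets of 3 successive isolated peaks. A chain member had an NKD1 summit within 100 bp in 64 of 609 cases (10.5%, 8.32 to 13.2%), a pair member in 354 of 6476 (5.47%, 4.94 to 6.05%) and an isolated peak in 1561 of 49770 (3.14%, 2.99 to 3.29%), beside 3.48% of all NKD2 peaks. Close summits can share 1 NKD1 summit, and the 64 members stood at only 42 NKD1 summits. When each NKD1 summit was given only to its nearest NKD2 summit, the shares were 6.90% for chain members (5.14 to 9.19%), 4.49% for pair members (4.02 to 5.03%) and 3.14% for isolated peaks, beside 3.33% of all NKD2 peaks. The order remained, with a smaller distance between the classes. When NKD2 summits within 100 bp were merged, 4.33% of chain members had an NKD1 summit (2.88 to 6.47%). That interval included the 3.25% of isolated peaks and the 3.35% of all peaks of the merged list.

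The share of chains with NKD1 was highest among the short chains, although 26 of the 39 chains with NKD1 were longer. Of the 21 chains of up to 300 bp, 13 held NKD1 (61.9%, 40.9 to 79.2%), against 26 of the 176 longer chains (14.8%, 10.3 to 20.8%). Ordered by their shortest gap, 18 of the 36 chains with a gap of up to 100 bp held NKD1 (50%, 34.5 to 65.5%), 7 of 60 with a shortest gap over 100 and up to 200 bp (11.7%, 5.77 to 22.2%), 8 of 58 up to 500 bp (13.8%, 7.16 to 24.9%) and 6 of 43 up to 1000 bp (14.0%, 6.56 to 27.3%). The median highest signal in these 4 classes was 45.0, 30.9, 33.1 and 30.0, so the class with most NKD1 was also the strongest. For members of the longer chains the share counted by nearest summits was 4.77% (3.28 to 6.90%), close to the 4.49% of pairs. The interval included the 3.33% of all NKD2 peaks but not the 3.14% of isolated peaks.

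Because NKD1 sharing differs with NKD2 signal (26.7% in the strongest 10% of all NKD2 peaks), the shares were also taken within that 10%. There, 48 of 93 chain members had an NKD1 summit within 100 bp (51.6%, 41.6 to 61.5%), 255 of 845 pair members (30.2%, 27.2 to 33.4%) and 1213 of 4748 isolated peaks (25.5%, 24.3 to 26.8%). By nearest summits the shares were 33.3% (24.6 to 43.4%), 26.2% (23.3 to 29.2%) and 25.5%. The chains were not alike here. Within 100 bp, NKD1 stood at 27 of 32 members of short chains (84.4%, 68.2 to 93.1%). In the longer chains it stood at 21 of 61 (34.4%, 23.7 to 47.0%). By nearest summits these shares were 40.6% (25.5 to 57.7%) and 29.5% (19.6 to 41.9%). Below the strongest 10% the shares by nearest summits were 11 of 516 for chain members (2.13%, 1.19 to 3.78%), 70 of 5631 for pair members (1.24%, 0.985 to 1.57%) and 348 of 45022 for isolated peaks (0.773%, 0.696 to 0.858%). The strongest 10% is itself a wide class, so the NKD1-sharing chain members were also set beside the number that isolated peaks of the same signal would give. With signal in steps of 10% of the list, 42 chain members stood against 28.1, a ratio of 1.49, and the Poisson interval of the count (30.3 to 56.8) lay above 28.1. With steps of 1%, the number was 32.8 and the ratio 1.28, and the interval included 32.8. The difference from isolated peaks was thus smaller with the finer steps, and within the counting error there. With steps of 10%, members of the short chains gave 16 against 8.51 and those of the longer chains 26 against 19.6. With steps of 1% the numbers were 11.1 and 21.7, and the intervals of both counts (9.15 to 26.0 and 17.0 to 38.1) included them. NKD1 signals at chains had a median of 26.7 (24.0 to 33.0), against 24.7 at pairs and 24.6 at isolated peaks. Their percentile within the NKD1 list had a median of 62.5 at chains (47.7 to 81.1), and the interval included the 50.7 of isolated peaks.

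**Figure D4:**
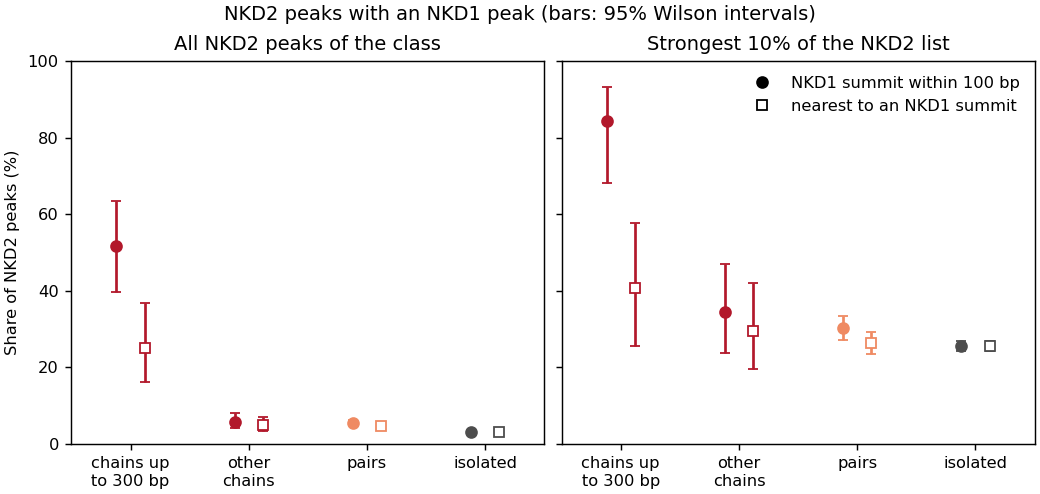
Share of NKD2 peaks with an NKD1 peak (vertical axis, %, with 95% Wilson intervals) for chains of up to 300 bp, other chains, pairs and isolated peaks, over all peaks (left) and over the strongest 10% of the NKD2 list (right). Filled circles count every NKD2 peak with an NKD1 summit within 100 bp, open squares only the NKD2 peak nearest to each NKD1 summit; the counts differ most in the short chains, 51.6% and 25% over all their peaks.

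At the chains, as elsewhere, most NKD1 summits nearly coincided with an NKD2 summit. Of the 42 NKD1 summits in chains, 33 stood 1 bp from the NKD2 summit (78.6%, 64.1 to 88.3%), against 233 of 291 in pairs (80.1%) and 1245 of 1562 at isolated peaks (79.7%). All NKD1 summits up to 100 bp away were counted next, and the largest distance was 96 bp. In 28 of the 39 chains (71.8%, 56.2 to 83.5%) the NKD2 summit nearest to an NKD1 summit was the strongest of its chain. The chain on chromosome 1 with the highest signal was an exception, since its NKD1 summit, with a signal of 37.0, lay 9 bp from the second summit and not at the first, whose NKD2 signal was 190. On chromosome 8, in the chain with gaps of 75 and 128 bp, the NKD1 summit fell at the weakest NKD2 summit, with an NKD2 signal of 13.8.

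Only 3 chains held 2 NKD1 summits, and all 3 were among those with steps of 78 or 79 bp. On chromosome 2 the NKD1 summits at 193567912 and 193567990 were 78 bp apart, with NKD1 signals of 21.9 and 45.9. In the chain of 4 on chromosome 4 those at 140237860 and 140238017 were 157 bp apart, with signals of 54.7 and 40.3, at the NKD2 summits with signals of 82.7 and 73.3. In the other chain on chromosome 4, NKD1 summits at 121807719 and 121807875 were 156 bp apart, with signals of 38.5 and 30.5. The second of these fell inside the gap of 156 bp between NKD2 summits, 77 bp from the middle summit and 79 bp from the last. The NKD1 and NKD2 summits of this chain thus stood at steps of 77 to 79 bp.

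Chains were found on all 10 chromosomes, from 8 on chromosome 5 to 31 on chromosome 1. Peaks in chains made up 0.842% of NKD2 peaks on chromosome 5 (0.567 to 1.25%), where NKD2 peaks were sparse, and 1.34% on chromosome 7 (1.06 to 1.68%), the lowest and highest shares. Chromosome 5 had 12.7 NKD2 peaks per Mb, against 27.6 to 29.5 on the other chromosomes. All 10 intervals of the shares included the 1.07% of the whole list, and they treat the peaks of 1 chain as independent. Relative to uniform positions in 5 Mb windows, the number of chains was 3.63 times the calculated number on chromosome 3 and 5.16 times on chromosome 7, with the other chromosomes between. Neighboring chains on a chromosome were a median of 8025 kb apart, and 167 kb at the closest. The widest distance, 130359 kb, was on chromosome 5, between 1395550 and 131754654. NKD2 peaks of any class were far sparser in that stretch than on the rest of the chromosome.

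**Figure D5:**
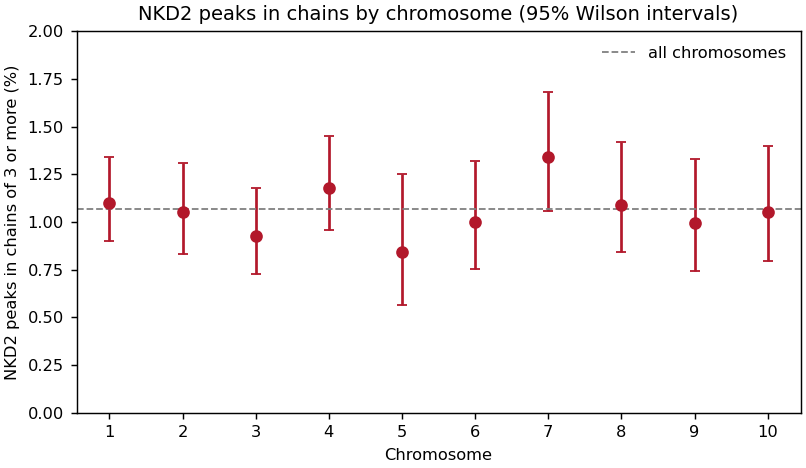
Share of NKD2 peaks that belong to chains of 3 or more (vertical axis, %, with 95% Wilson intervals) on each of the 10 chromosomes (horizontal axis), with the share over all chromosomes as a dashed line. The shares lie between 0.842% and 1.34%, and every interval crosses the line.

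Along the chromosomes, the outer 20% at each end, together 40% of the length, held 75 of the 197 chains (38.1%, 31.6 to 45.0%), beside 40.3% of all NKD2 peaks. In 5 steps of 20% of the length from the start of the chromosome, 29, 35, 53, 34 and 46 chains were found (14.7, 17.8, 26.9, 17.3 and 23.4%), against 19.1, 19.8, 20.2, 19.7 and 21.2% of all NKD2 peaks. The share of chains was highest in the middle step, with 26.9% against 20.2% of peaks. No intervals were calculated for these steps, so their differences from the peaks were not weighed against counting error. The short chains were mostly inside the chromosomes, with 4 of 21 in the outer 40% (19.0%, 7.67 to 40%), against 71 of the 176 longer chains (40.3%, 33.4 to 47.7%). The upper bound for the short chains nearly reached the share of all NKD2 peaks. It treats the 11 chains with recurring gaps as independent, and the limit of 300 bp was set after the lengths were seen. Of the 6 chains of 3 with gaps of 78 and 78 or 78 and 156 bp, only that on chromosome 6 lay in the outer 40%.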

How the data were processed

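NKD2 and NKD1 DAP-seq peak lists were the main data. Per the study's methods, the authors used Trimmomatic for trimming, Bowtie2 for mapping (B73, build v4), SAMtools to keep reads of mapping quality above 30, and GEM to call events in each sample separately. Events of a HALO-GST control and listed problem regions were subtracted. The submitters' processing notes name B73 RefGen_v3, whereas the methods and list names give v4, which was used here. HB115 and NACTF49 lists, named as v3, were used only to count chains.

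Each deposited peak is an interval of 201 bp around its summit. The deposited signal is the event strength given by GEM, not scaled between libraries. The deposited lists also give −log10 of the p-value and of the q-value, and a display score, which was not used.

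Summits (counted from 1) were chained at a limit of 1000 bp. NKD1 sharing used 100 bp. The number under uniform positions was calculated in closed form for each 5 Mb window, with chromosome length taken as the largest deposited end, and the formula was tested on simulated positions. Shares carry 95% Wilson intervals and medians intervals from order statistics. The named chains were the 5 with most summits, the strongest of each chromosome, the 5 with the highest weakest member, the 5 with most NKD1 summits, the 3 shortest and 3 longest chains of 3, and the largest sets of equal spacing. Chains and measures were chosen with earlier results of these data known. Calculations used Python 3.11.15, pandas 2.3.3 and SciPy 1.17.1. Sequence and genes at the chains were not analysed here, because no genome of build v4 was used.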

Additional observations from a re-analysis of the deposited data

How the results depend on the processing

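In all, 75 alternatives to 15 results were run, and a change of direction was not scored. Of these, 37 stayed within the counting error (a factor of 1.5 for numbers) and 38 moved further. Counting each NKD1 summit at its nearest NKD2 summit only, leaving out chains of up to 300 bp, the match to isolated peaks of the same signal, and the ratios to the calculated number for changed lists or limits were chosen after the data were seen. No paired analysis was possible because NKD2 and NKD1 had 1 library each. Depth is unknown, and the number of chains depended on how many weak peaks were kept. The strongest 50% of the list left 34 chains, 5.73 times the calculated number, with 0.362% of peaks, a median length of 890 bp, a median percentile of 74.7 within that shorter list, NKD1 at 32% of members (6.70% of all its peaks), 29.4% of chains in the outer 40% (41.0% of all its peaks) and the middle summit strongest in 45.5%. A q-value of 0.0001 or less left 25 chains, 10.6 times the calculated number, with 0.365% of peaks, a median length of 685 bp, a median percentile of 79 within its list, NKD1 at 40.8% of members (9.13% of all its peaks) and the middle summit strongest in 41.7%. Merging summits within 100 bp gave 3.68 times the calculated number, 0.900% of peaks, a length of 1062 bp and NKD1 at 4.33% of members (3.35% of all its peaks). A limit of 500 bp gave 60 chains, 5.09 times the calculated number, 0.318% of peaks, 502 bp, NKD1 at 21.0% and the middle summit strongest in 43.1%. A limit of 2000 bp gave 586 chains, 3.4 times the calculated number, 3.27% of peaks, 1784 bp and NKD1 at 7.05%. Under both limits the NKD1 share over all NKD2 peaks was 3.48%. These shares count every member within 100 bp of an NKD1 summit, so 1 NKD1 summit can count at several close members. Numbers of chains changed by construction under other lists and limits, and NKD1 sharing was higher over all peaks of the stronger lists. NKD1 stood at 6.73% of members within 50 bp, at 6.90% by nearest summits, and without the chains of up to 300 bp at 5.69% of members and in 14.8% of chains; 11.2% of members were then in the strongest 10%. The strongest 25% of the list held 31.0% of members, 10.4% of gaps were at most 100 bp, and 19 chains shared both gaps within 5 bp. Windows of 1 Mb, 10 Mb and whole chromosomes gave 48.6, 45.2 and 42.5 calculated chains. The motif and gene analyses were not run.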
